A study of Mus musculus with 31 samples.

Results

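Fabp5, Lpin1 and Abcb1a are 3 genes of lipid handling and efflux whose transcripts were lower after neuromedin U (NmU) than after vehicle in a mouse T cell clone. They were chosen by symbol from the annotation of the array's probe sets, the groups of short probes that together measure 1 transcript. Each gene was measured by 1 probe set, giving 3 genes of the 8251 with a probe set of their own, and 3 probe sets among the 12422 on the array that are not controls. All 3 passed the filter on dim probe sets that 7930 of the 12422 passed. The genes were chosen for being lower with NmU, so that their differences between NmU and vehicle are a description and carry no test.

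The cells were D10.G4.1, a cloned line of mouse T helper cells of the Th2 type, so that all arrays come from 1 clone. Cultures received NmU for 0.8, 3, 6 or 12 h (4 arrays at each time except 3 h, which had 3), or phosphate-buffered saline (PBS) for the same times (4 arrays each). This makes 31 arrays in 8 groups, each hybridised with total RNA. The labels give no dose of NmU, and do not say whether replicates were separate cultures, so that errors and p-values reflect only how these arrays vary, which could be technical variation alone. Since RNA came from whole cultures, fewer cells that express a gene and less of its RNA per cell cannot be told apart.

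Fatty acids are poorly soluble in water and move through the cytosol bound to small proteins of the FABP family. Fabp5, the epidermal type, is one of these, and it can carry its ligands to nuclear receptors of the PPAR family. Lpin1 encodes lipin 1, a phosphatase that makes diacylglycerol from phosphatidic acid, the step that leads to triglycerides and to several phospholipids, and that also acts in the nucleus as a transcriptional coactivator. Abcb1a encodes P-glycoprotein, an ATP-driven pump of the plasma membrane that exports many hydrophobic compounds and is found on several kinds of lymphocyte.

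The 3 transcripts were measured at very different brightness. The deposited signal (a linear intensity in arbitrary units) averaged 955 for Fabp5, 82.8 for Abcb1a and 27.9 for Lpin1 over the 31 arrays. Of the 7930 probe sets that passed the filter, 92.3% were dimmer than Fabp5, 40.9% were dimmer than Abcb1a and 12.9% were dimmer than Lpin1. Signals of different probe sets cannot be set against each other as transcript levels. Lpin1 lay above the filter, a mean signal of about 20.2 taken on the log2 scale, in 5 of 8 groups, namely the 4 PBS groups and NmU at 12 h, whereas Fabp5 and Abcb1a lay above it in all 8.

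The table of RefSeq promoters (build GRCm38.p6) held entries for 2 of the 3 genes. The 250 bases before an annotated start are shown for these. Capitals mark matches to 8 short motifs searched on both strands, namely TGANTCA (AP-1), GGAAA (the core bound by NFAT), AGGTCA (a site of lipid-sensing and other nuclear receptors), TGACGT (bound by CREB), GGGCGG (the GC box bound by Sp1), CCAAT (bound by NF-Y), TATAAA (the core of the TATA box) and CACGTG (an E-box). The Lpin1 window is chr12:16610967-16611216 on the minus strand. It lies inside the span that the same build gives the gene, 16535669 to 16653903, and so not upstream of the whole gene. Whether the transcript measured here begins at that start was not tested. The Abcb1a window is chr5:8566841-8567090 on the plus strand.
Lpin1: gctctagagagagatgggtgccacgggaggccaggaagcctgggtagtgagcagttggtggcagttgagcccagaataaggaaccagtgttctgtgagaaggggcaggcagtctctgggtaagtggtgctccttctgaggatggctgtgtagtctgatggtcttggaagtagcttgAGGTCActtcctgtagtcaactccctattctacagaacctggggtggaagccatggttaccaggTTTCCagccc
Abcb1a: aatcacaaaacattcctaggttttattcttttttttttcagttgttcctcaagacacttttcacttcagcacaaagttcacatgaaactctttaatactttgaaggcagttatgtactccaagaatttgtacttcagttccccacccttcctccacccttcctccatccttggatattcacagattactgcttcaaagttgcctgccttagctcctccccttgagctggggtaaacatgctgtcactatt

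The Lpin1 window held 1 AGGTCA, which begins 74 bases before the start, and 1 GGAAA core, on the other strand, which begins 10 bases before it. Of 32851 promoter windows of the same length in the table, 14% held AGGTCA and 55.6% held GGAAA on either strand. The Abcb1a window held none of the 8 motifs and had 40.4% G and C bases, against 54.8% in the Lpin1 window. TATAAA stood in 12.4% of all windows, TGANTCA in 6.75%, TGACGT in 6.47%, CACGTG in 6.02%, GGGCGG in 32.7% and CCAAT in 33.8%. A match is a run of letters and not a measured binding site.

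Fabp5 was close to its PBS level in the first hours of NmU and clearly below it at 6 and 12 h. At 0.8 h its signal was 1068.9, 1053.1, 1003.8 and 952 on the NmU arrays, against 1297.2, 1090.1, 1159.2 and 1067.6 on the PBS arrays. The groups overlapped by the margin between a single pair of arrays. At 3 h the signal was 967, 834.3 and 852.8 with NmU, against 1082.3, 783.9, 959.3 and 1562.7 with PBS. The PBS arrays enclosed all 3 NmU arrays at 3 h, with PBS replicate 4 far above the rest.

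At 6 h the Fabp5 signal was 602.1, 673.9, 663.3 and 772.4 with NmU, against 1184.5, 1165.2, 1071.6 and 1145.4 with PBS. At 12 h it was 592.8, 565.3, 569 and 612.5 with NmU, against 1041.7, 1011.6, 1125.6 and 1088.5 with PBS. Every NmU array lay below every PBS array at both of these times, by a wide gap. The group means were 678 ± 70.5 with NmU and 1142 ± 49.4 with PBS at 6 h (SD, n = 4 each), and 585 ± 22.1 with NmU and 1067 ± 50.4 with PBS at 12 h (SD, n = 4 each).

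On the log2 scale, the difference of NmU minus PBS for Fabp5 was -0.18 at 0.8 h, -0.27 at 3 h, -0.76 at 6 h and -0.87 at 12 h, each with a standard error (SE) of 0.13 except at 3 h, where it was 0.14. The value at 12 h corresponds to 54.8% of the PBS level. The 3 h value rests on PBS replicate 4, without which it was -0.081.

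Lpin1 was lowest at 3 h of NmU and nearer to PBS at later times, from 3 h on the reverse order to Fabp5. At 3 h its signal was 7, 17.8 and 5.9 on the NmU arrays, against 41.2, 32.3, 36.9 and 35.7 on the PBS arrays. All 3 NmU arrays lay below all 4 PBS arrays, and 2 of them lay close to the floor of 5.8 to which low values were raised before logs were taken. Means were 10.2 ± 6.58 with NmU (SD, n = 3) and 36.5 ± 3.68 with PBS (SD, n = 4). The log2 difference was -2.01 (SE 0.33), and it was -2.50 without NmU replicate 2.

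At 0.8 h the Lpin1 signal was 11.5, 28.5, 18.4 and 27.4 with NmU, against 25.8, 31.7, 19.7 and 24.2 with PBS. At 6 h it was 13.7, 18.7, 22.5 and 27.2 with NmU, against 34.5, 21.2, 30.8 and 46.6 with PBS, and at 12 h it was 39.3, 30.5, 25.4 and 27.9 with NmU, against 55.1, 37, 39.9 and 30.7 with PBS. The NmU and PBS arrays overlapped at these 3 times, although 2 of 4 NmU arrays at 0.8 h and 6 h and 3 of 4 at 12 h lay below every PBS array. The log2 differences were -0.31 at 0.8 h, -0.69 at 6 h and -0.39 at 12 h (SE 0.31 each). Its dimness bears on the size of the 3 h value, which was -0.85 with the floor at a signal of 20.2 and -1.03 when 16 was added to each value in place of a floor.

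Abcb1a was level with PBS at 0.8 h and lower with NmU at 3, 6 and 12 h. At 0.8 h its signal was 88.6, 89.6, 93.2 and 112.1 with NmU, against 86.7, 85.3, 104.9 and 107.1 with PBS, and the groups overlapped broadly. At 3 h the signal was 30.8, 61 and 56.7 with NmU, against 93.9, 98.7, 101.2 and 48 with PBS. The groups overlapped there only through PBS replicate 4, which stood far below the other PBS arrays.

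At 6 h the Abcb1a signal was 58.6, 56.5, 61.5 and 76.2 with NmU, against 98.7, 86.4, 109.4 and 108.6 with PBS. At 12 h it was 60.3, 61, 50.8 and 60.6 with NmU, against 119.4, 89.3, 91.8 and 118.5 with PBS. The groups did not overlap at either time. Means at 12 h were 58.2 ± 4.93 with NmU and 104.8 ± 16.4 with PBS (SD, n = 4 each).

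The log2 difference of NmU minus PBS for Abcb1a was -0.00 at 0.8 h (SE 0.20, of either sign depending on the array scaling and on single arrays), -0.79 at 3 h (SE 0.22), -0.68 at 6 h (SE 0.20) and -0.84 at 12 h (SE 0.20). The 12 h value corresponds to 55.9% of the PBS level. The 3 h value was -1.05 without PBS replicate 4 and -0.48 without NmU replicate 1, so that its size at that time rests on single arrays. From 3 h on the differences of Abcb1a were alike in size, whereas that of Fabp5 was largest at 12 h and that of Lpin1 at 3 h.

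**Figure D1:**
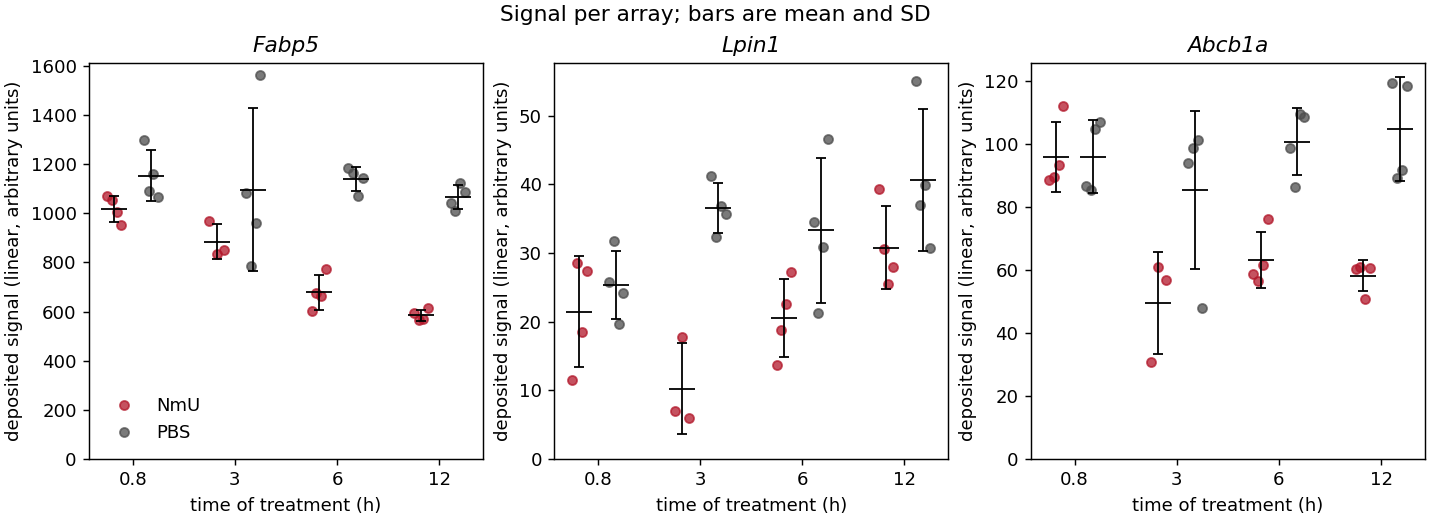
Deposited signal (linear scale, arbitrary units, axis from 0) of Fabp5, Lpin1 and Abcb1a on each of the 31 arrays by hours of treatment (times equally spaced), NmU in red and PBS in grey, with the mean and SD of each group as black bars. Fabp5 with NmU lies at 565.3 to 772.4 at 6 and 12 h, below all PBS arrays of those times, Lpin1 lies at 5.9 to 17.8 with NmU at 3 h, below the PBS arrays of that time, and Abcb1a with NmU lies at 50.8 to 76.2 at 6 and 12 h.

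**Figure D2:**
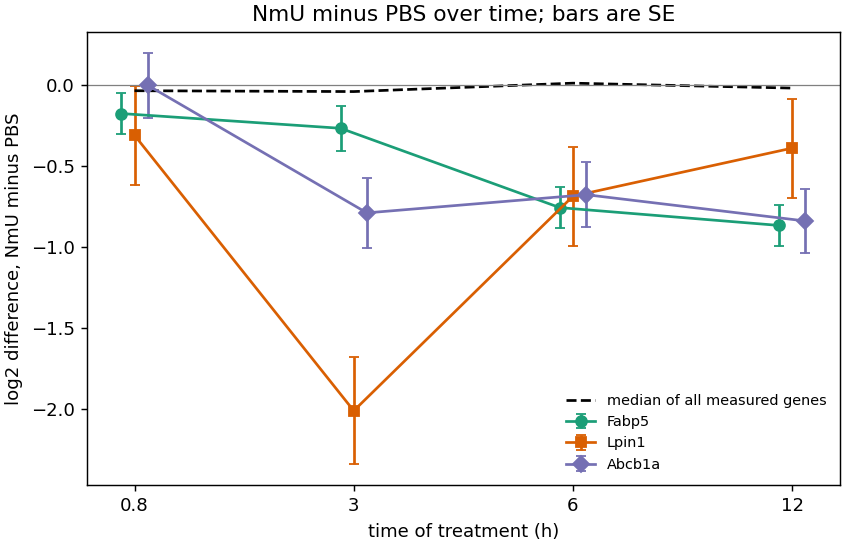
Log2 difference of NmU minus PBS (vertical axis) at 0.8, 3, 6 and 12 h (times equally spaced) for the 3 genes, with SE from limma as bars and the median of all 5905 measured genes as a dashed line. Lpin1 is lowest at 3 h (-2.01), Fabp5 is lowest at 12 h (-0.87) and Abcb1a stays between -0.68 and -0.84 from 3 h on.

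For orientation, at 0.8 h 0.0631% of the 7930 probe sets were called lower with NmU (limma, adjusted p under 0.05), and at 3, 6 and 12 h 5.73%, 2.03% and 0.404% were. Probe sets on which every NmU array lay below every PBS array made up 2.46% at 0.8 h, 10.6% at 3 h, where n = 3 against 4, and 5.44% at 6 h and 3.82% at 12 h. Nothing is read from these shares for the 3 genes, since the same contrast chose them. The median log2 difference over the 5905 measured genes lay between -0.04 and 0.01 at the 4 times.

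Vehicle cells held the 3 transcripts without a change over time that the test could call. Over the PBS groups at 0.8, 3, 6 and 12 h the moderated F test gave a limma adjusted p = 0.907 for Fabp5, adjusted p = 0.681 for Lpin1 and adjusted p = 0.791 for Abcb1a. This test called 0.0126% of all probe sets, a single one, and it uses the PBS arrays that also served to choose the genes. Against 0.8 h, PBS at 12 h differed by -0.11 ± 0.13 for Fabp5, by 0.67 ± 0.31 for Lpin1 and by 0.12 ± 0.20 for Abcb1a on the log2 scale (SE).

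A second test took all arrays of a time together, NmU and PBS weighted by their number, and called 5.49% of probe sets. It includes the NmU arrays for whose low values the 3 genes were chosen, so that for these genes its values restate that choice and are given as a description. For Fabp5 the mean over all arrays of a time differed from that at 0.8 h by -0.30 at 6 h and -0.46 at 12 h on the log2 scale (SE 0.09 each). The NmU arrays alone differed by -0.59 and -0.80 (SE 0.13 each), and the PBS arrays alone by -0.01 and -0.11 (SE 0.13 each). Lpin1 on the NmU arrays differed from 0.8 h by -1.16 at 3 h, -0.02 at 6 h and 0.59 at 12 h (SE 0.33, 0.31 and 0.31). Abcb1a on the NmU arrays differed by -1.01 at 3 h, -0.60 at 6 h and -0.72 at 12 h (SE 0.22, 0.20 and 0.20).

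Across the 31 arrays, which share treatments and times, the Pearson correlation of log2 signal was 0.54 between Lpin1 and Abcb1a, 0.46 between Fabp5 and Abcb1a and 0.17 between Fabp5 and Lpin1. After the group means were taken off, Fabp5 and Abcb1a had a correlation of -0.60, which was -0.23 without PBS 3 h replicate 4 (30 arrays). On that array Fabp5 had its highest signal of all and Abcb1a its lowest among PBS arrays, and the array's mean correlation with its own group over all probe sets, 0.956, was the lowest of the 31 arrays.

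The mean correlation of the other arrays with their own group was at least 0.960, and 0 pairs of arrays held identical values. Egr1, an immediate early gene, differed by 4.57 ± 0.45 (log2, SE) at 0.8 h of NmU and Il4, the signature cytokine of Th2 cells, by 1.82 ± 0.11 on its brightest probe set (limma adjusted p = 1.01e-07 and 1.02e-11). The other Il4 probe sets differed by 2.82 ± 0.19, 0.97 ± 0.42 and 0.21 ± 0.17 at 0.8 h (limma adjusted p = 1.40e-10, 0.621 and 0.931). Of the 12 T cell and Th2 markers looked for, 11 were on the array and all 11 passed the filter. Their median signals ran from 67.3 for Il5 to 2204 for Gata3, with Cd247 at 109.1, Cd4 at 282.6 and Cd3d at 1437. The 11 summed to 10869.9 to 17355.5 on NmU arrays and 8054.7 to 9953.4 on PBS arrays. At 0.8, 3, 6 and 12 h limma called 3, 5, 3 and 3 of the 11 higher with NmU and 0 lower. Of all genes 0.898%, 4.47%, 2.96% and 0.948% were called higher at these times. Of 8 macrophage and dendritic cell markers, 4 (Adgre1, Itgam, Lyz2 and Marco) had a median at or below the floor. The other 4 passed the filter, with median signals of 100.5 for Itgax, 70.9 for Cd14, 39.1 for Cd68 and 30 for Csf1r. All 8 together summed to 200 to 343 on NmU arrays and 193 to 318 on PBS arrays. The 4 B cell markers on the array all passed the filter. They summed to 88.1 to 161 on NmU arrays and 94.3 to 194 on PBS arrays. Of 7 adipocyte and epithelial markers, 2 passed the filter. The 7 summed to 172 to 387 on NmU arrays and 195 to 382 on PBS arrays. Of the markers other than the T cell and Th2 ones, limma called only Cd68, a lysosomal protein of macrophages and other cells. It rose by 0.54 ± 0.15 at 6 h and 0.61 ± 0.15 at 12 h (limma adjusted p = 0.0370 and 0.0457). Its part in the values of the 3 genes was not tested.

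Among the nearest relatives of Fabp5, Fabp4, the adipocyte type, was the only one in the range of measurement. Fabp4 lies on chromosome 3 as Fabp5 does, with the family members Fabp9 and Pmp2 as the only protein-coding genes between them. Its signal was 35.2 to 100.7 over the arrays. The log2 differences of Fabp4 were -0.21, -0.39, -0.63 and -0.70 at 0.8, 3, 6 and 12 h (SE 0.26 to 0.28), values near those of Fabp5, but no time was called (limma adjusted p = 0.965, 0.431, 0.179 and 0.260). At 6 h it averaged 49.0 ± 6.06 with NmU and 76.7 ± 14.8 with PBS (SD, n = 4 each), without overlap. Across the 31 arrays the log2 signals of Fabp4 and Fabp5 had a Pearson correlation of 0.48, which was -0.10 within groups. The list of FABP genes held only Fabp4 and Fabp6, the ileal type, among its measured members, and limma called 0 of these 2 at any time (1 at 6 h and 1 at 12 h had an unadjusted p under 0.05). Fabp3, the heart type, and Fabp7, the brain type, had median signals of 8.4 and 2.5 and did not pass the filter.

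Lipin 1 has a close relative in Lpin2, which differed by -0.03 ± 0.17 (log2, SE) at 3 h, the time at which Lpin1 was lowest, and by -0.15, -0.11 and -0.06 at 0.8, 6 and 12 h (SE 0.15 each). None of these was called (limma adjusted p = 0.793 to 0.954), and the median signal of Lpin2 was 41.0. A second probe set of Lpin2 was at or below the floor on 25 of 31 arrays.

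Abcb1a neighbours its paralog Abcb1b, which also encodes a P-glycoprotein, and then the phospholipid pump Abcb4 on chromosome 5, with no protein-coding gene between them. Abcb1b was at or below the floor on 17 of 31 arrays (median signal 5.6), so that no change in it could be measured. Abcb4 differed by -0.69 ± 0.28 (log2, SE) at 3 h and 0.22 ± 0.26 at 12 h (limma adjusted p = 0.119 and 0.809). Without NmU 3 h replicate 3 it was called at 3 h (adjusted p = 0.0145). The glutathione-conjugate pump Abcc1 differed by 0.45 ± 0.17 at 6 h (adjusted p = 0.146, and 0.0270 without PBS 3 h replicate 4). The cholesterol exporters Abcg1 and Abca1 differed by -0.33 ± 0.23 and -0.57 ± 0.38 at 6 h (adjusted p = 0.493 and 0.472). Abca1 at 3 h differed by -0.11 ± 0.41 (adjusted p = 0.914), and by -0.76 without PBS 3 h replicate 4 (adjusted p = 0.0479). A second, dimmer probe set of Abca1 differed by -0.67 ± 0.47 at 3 h and -0.37 ± 0.43 at 6 h (adjusted p = 0.416 and 0.726). Over the 31 arrays the log2 signals of the 2 Abca1 probe sets had Pearson correlations of 0.67 and 0.68 with Abcb1a. Those of Abcg1, Abcb4 and Abcc1 had 0.53, 0.33 and 0.07. These values include the NmU arrays for whose low values Abcb1a was chosen. In the same order, the correlations within groups were 0.81, 0.69, 0.54, 0.25 and 0.63. Without PBS 3 h replicate 4 those within groups were 0.64, 0.44, 0.21, 0.41 and 0.31.

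**Figure D3:**
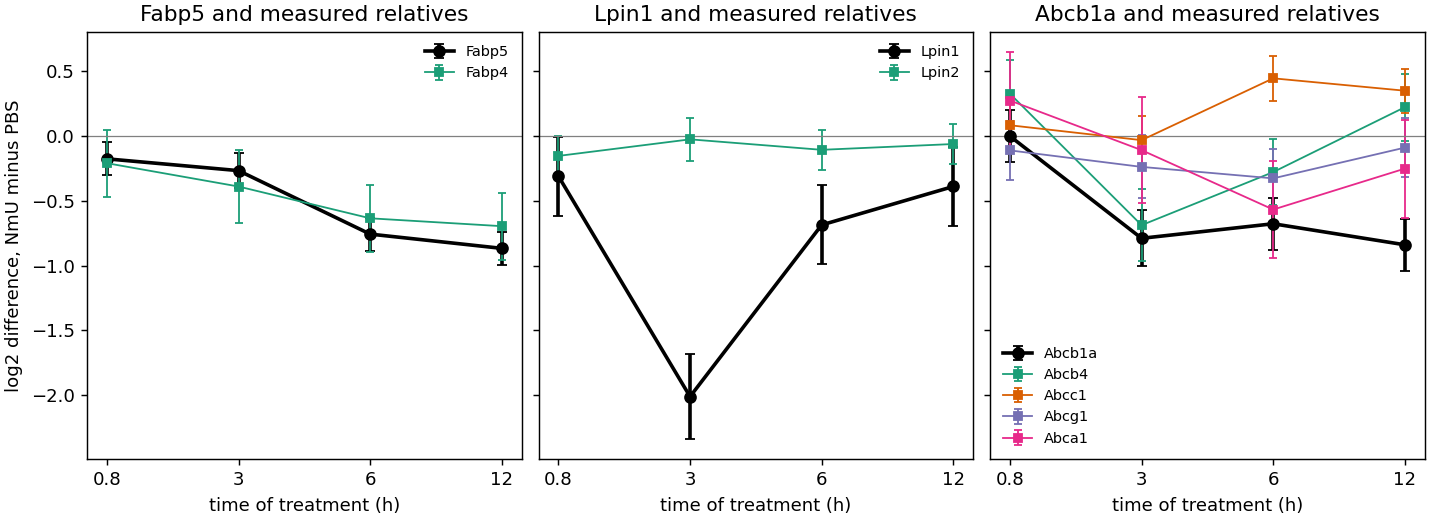
Log2 difference of NmU minus PBS (vertical axis, bars SE) at 0.8, 3, 6 and 12 h (times equally spaced) for Fabp5, Lpin1 and Abcb1a in black and, in colour, those of their nearest relatives that passed the filter. Fabp4 lies near Fabp5 throughout, Lpin2 stays between -0.15 and -0.03 and Abcc1 lies at 0.45 at 6 h.

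The wider pathways were described with 11 lists of lipid and efflux genes, 211 genes in all, of which 158 were on the array and 112 passed the filter. At 0.8 h limma called 0 of the 112 (4 had an unadjusted p under 0.05), beside 0.0677% of all genes called lower and 0.898% called higher. At 3 h 8 fell and 6 rose, or 7.14% and 5.36%, beside 6.49% and 4.47% of all genes, so that neither share stood out. Without PBS 3 h replicate 4, 13 fell, and with only the NmU and PBS groups of 3 h in the fit, 2 fell and 3 rose. At 6 h 4 fell and 11 rose, or 3.57% and 9.82%, beside 2.37% and 2.96% of all genes. At 12 h 0 fell and 2 rose, beside 0.457% and 0.948% of all genes, and 21 had an unadjusted p under 0.05.

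Of 17 measured genes of fatty acid oxidation 3 fell and 0 rose at 3 h, beside 6.49% of all genes called lower. The same 3 fell at 6 h, beside 2.37% of all genes. These were Cpt1a and Cpt2, which carry long-chain fatty acids across the mitochondrial membranes, and Acaa1a, a thiolase of peroxisomes. Cpt1a averaged 304 ± 11.7 with NmU (SD, n = 3) and 426 ± 60.4 with PBS (SD, n = 4) at 3 h. It fell by 0.48 (SE 0.12) at 3 h and fell by 0.51 (SE 0.11) at 6 h on the log2 scale (limma adjusted p = 0.0104 and 0.00695). Cpt2 fell by 0.52 (SE 0.12) at 3 h and fell by 0.45 (SE 0.11) at 6 h (adjusted p = 0.00364 and 0.0128). Acaa1a fell by 0.59 (SE 0.14) and fell by 0.45 (SE 0.13) at these times (adjusted p = 0.00693 and 0.0473). At 12 h none of the 17 was called, and 3 had an unadjusted p under 0.05.

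The median log2 difference of the oxidation list was -0.23 at 3 h and -0.22 at 6 h, beside -0.04 and 0.01 over all genes. With only the 2 groups of a time in the fit the calls of all 3 genes were lost (adjusted p = 0.150, 0.170 and 0.0865 for Cpt1a, Cpt2 and Acaa1a at 3 h, and 0.0601, 0.0690 and 0.151 at 6 h). The 6 h call of Acaa1a was also lost on leaving out any of 22 single arrays. The 3 h count was 5 without PBS 3 h replicate 4 and 2 without NmU 3 h replicate 1. In the latter fit Cpt1a lost its 3 h call (adjusted p = 0.0519). Under median scaling of the arrays Acaa1a lost its calls at 3 h (adjusted p = 0.0682) and 6 h (adjusted p = 0.0891). The list of PPAR targets shares Cpt1a and Acaa1a with the oxidation list. Only these 2 of its 10 measured genes were called lower at 3 and 6 h, beside 6.49% and 2.37% of all genes.

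Of 17 measured genes of glycerolipid and phospholipid synthesis, the pathway of lipin 1, 2 fell at 3 h and 0 rose. Beside these, 6.49% of all genes were called lower and 4.47% higher at 3 h. Both genes that fell encode phosphatidylserine synthases. Ptdss1 fell by 0.37 (SE 0.08, limma adjusted p = 0.00236), a call lost with only the groups compared (adjusted p = 0.178) and under median scaling of the arrays (adjusted p = 0.0586). Ptdss2, a dim transcript, averaged 9.80 ± 2.67 with NmU (SD, n = 3) and 34.6 ± 7.29 with PBS (SD, n = 4) and fell by 1.83 (SE 0.40, adjusted p = 0.00322). Like that of Lpin1, the 3 h value of Ptdss2 shrank with the higher floor, to -0.76, and was then not called (adjusted p = 0.0690). At 6 h Ptdss1 fell by 0.25 (SE 0.07, adjusted p = 0.0462) and Pcyt1a, the rate-limiting enzyme of phosphatidylcholine synthesis, rose by 0.64 ± 0.19 (adjusted p = 0.0486). At 12 h only the mitochondrial glycerol-3-phosphate dehydrogenase Gpd2 rose, by 0.59 ± 0.15 (adjusted p = 0.0464). The last 3 calls sat at the threshold and were each lost on leaving out any of 22 to 24 single arrays.

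Acsl4, which activates arachidonic and other polyunsaturated fatty acids by joining them to coenzyme A, was higher with NmU at 3, 6 and 12 h. It averaged 302 ± 61.7 with NmU and 134 ± 34.3 with PBS at 6 h (SD, n = 4 each), without overlap. It rose by 1.08 ± 0.17 at 3 h, 1.18 ± 0.16 at 6 h and 0.74 ± 0.16 at 12 h on the log2 scale (limma adjusted p = 6.86e-05, 1.84e-05 and 0.00977). It was the only one called of 4 measured genes of fatty acid uptake and activation, beside 4.47%, 2.96% and 0.948% of all genes called higher. The mean of its 2 probe sets at 12 h was 0.68 (adjusted p = 0.0524).

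Of 11 genes of fatty acid synthesis and desaturation 1 was called, lower at 3 h, beside 6.49% of all genes. This was Elovl5, which elongates polyunsaturated fatty acids. At 3 h it averaged 366 ± 25.5 with NmU (SD, n = 3) and 567 ± 24.3 with PBS (SD, n = 4) and fell by 0.64 (SE 0.10, limma adjusted p = 4.30e-05). Among 13 sphingolipid and eicosanoid genes 2 fell at 3 h, beside 6.49% of all genes called lower. These were the acid sphingomyelinase Smpd1 (fell by 0.81, SE 0.16, adjusted p = 0.00115) and the leukotriene A4 hydrolase Lta4h (fell by 0.48, SE 0.13, adjusted p = 0.0165). Lta4h lost its call when replicate 1 of the PBS arrays at 3 h, or replicate 2 or 3 of the NmU arrays, was left out (adjusted p of 0.0535 to 0.0998). With only the groups of 3 h in the fit neither gene was called (adjusted p = 0.135 for Smpd1 and 0.144 for Lta4h). Under median scaling of the arrays Lta4h was also not called at 3 h (adjusted p = 0.0739). In the reported fit all 3 genes were uncalled at 6 and 12 h. Lta4h was called at 6 h without PBS 6 h replicate 4 (adjusted p = 0.0406) and without NmU 6 h replicate 4 (adjusted p = 0.0351). With the other variance model it was called at 6 h too (adjusted p = 0.0489).

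Of 9 lipid-sensing nuclear receptors and regulators of sterol-responsive transcription, 1 rose at 3 h, beside 4.47% of all genes called higher. This was Rxra, the shared partner of PPAR and other receptors, at 1.07 ± 0.23 (limma adjusted p = 0.00273). At 6 h Rxra differed by 0.56 and was not called. It was called at 6 h with the mean of its probe sets (0.61, adjusted p = 0.00331) and without NmU 6 h replicate 4 (0.75, adjusted p = 0.0354). In the reported fit the other 8 were not called at any time. Of 13 measured genes of cholesterol synthesis and uptake 3 rose at 3 h and 9 rose at 6 h, beside 4.47% and 2.96% of all genes, with Sqle at 1.21 ± 0.15 and Msmo1 at 1.28 ± 0.17 at 6 h (adjusted p = 9.88e-06 and 1.87e-05), and 0 fell. The 6 h count was 5 under median scaling of the arrays and 5 with only the groups compared, and the 3 h count was 1 with only the groups compared, where Idi1 and Hmgcs1 lost their calls (adjusted p = 0.182 and 0.191). The 9 made up most of the 11 listed genes that rose at 6 h. Lipid droplet and lipolysis genes were called at no time (0 of 7, with 0 to 4 at an unadjusted p under 0.05), Plin2 differing by -0.43 ± 0.21 at 3 h (adjusted p = 0.202) and Lipa by 1.03 ± 0.37 (adjusted p = 0.0791). Without PBS 3 h replicate 4, Plin2 at 3 h had an adjusted p = 0.00257.

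Of 15 ABC transporters measured apart from Abcb1a, limma called 1 at 3 h, beside 4.47% of all genes called higher and 6.49% lower. It called 0 at 0.8, 6 and 12 h. Of the 15, 0, 4, 1 and 0 had an unadjusted p under 0.05 at 0.8, 3, 6 and 12 h. Whether any of them differed from Abcb1a was not tested. The one called, Abcf2, a family member without membrane spans, rose by 0.31 ± 0.10 (adjusted p = 0.0436). That call was lost on leaving out any of 11 single arrays, with only the groups compared (adjusted p = 0.323) and under median scaling of the arrays (adjusted p = 0.0948). The median of the list was 0.05 at 3 h, -0.01 at 6 h and -0.02 at 12 h.

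**Figure D4:**
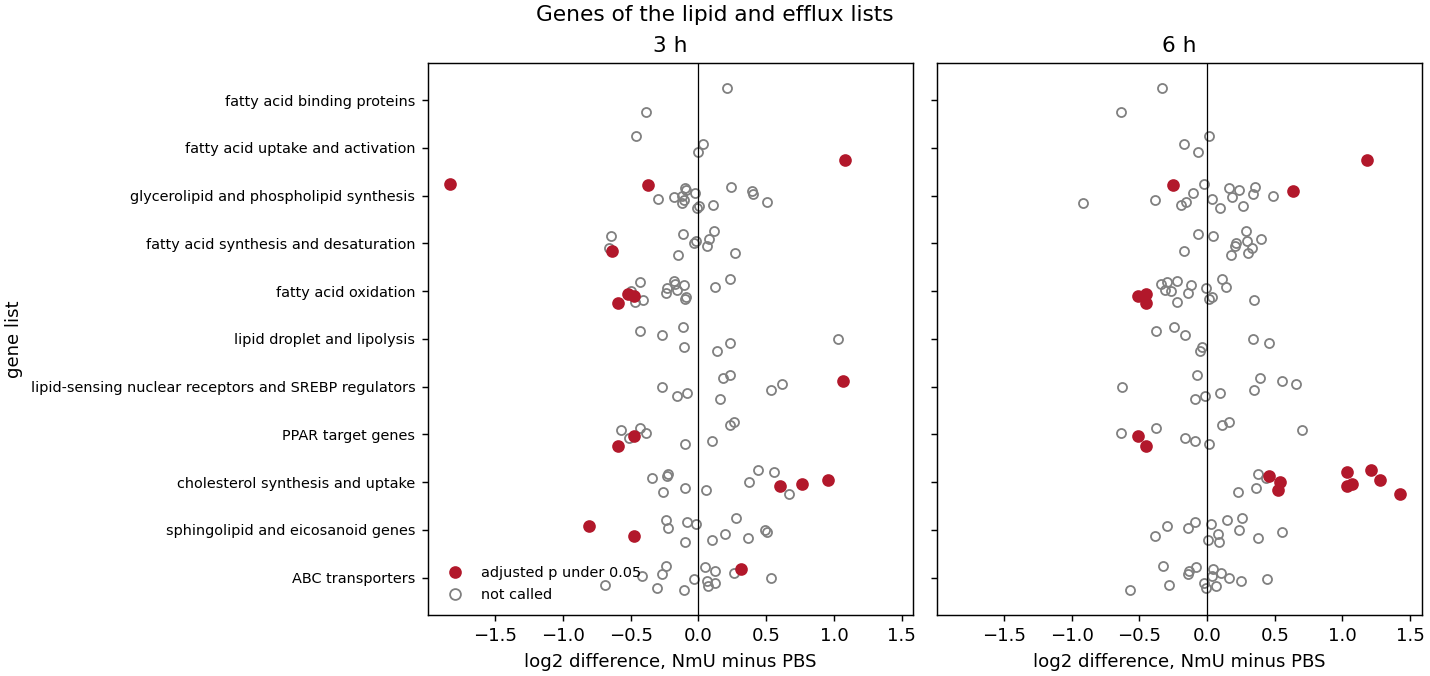
Log2 difference of NmU minus PBS (horizontal axis) at 3 h and 6 h for every measured gene of the 11 lists, with genes at a limma adjusted p under 0.05 filled in red and the others open. Of the fatty acid oxidation genes 3 lie left of 0 in red at both times, and 9 cholesterol synthesis genes lie right of 0 in red at 6 h.

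The transcripts with the most similar signal over the 31 arrays were listed for each gene by Pearson correlation, as a description. They were picked over the same NmU and PBS arrays, so that a shared order of times follows from the pick. For Fabp5 these were S100a13, a calcium-binding protein (0.89), the DNA polymerase epsilon subunit Pole4 (0.87), Fam107b (0.86), the selenoprotein Selenoh (0.84) and the cell cycle kinase subunit Cks2 (0.81). S100a13 had log2 differences of -0.24, -0.64 and -0.76 at 3, 6 and 12 h, the same order of times as Fabp5. For Lpin1 they were Dguok (0.77) and Polg2 (0.76), both of mitochondrial DNA upkeep, the prenyl-binding protein Pde6d (0.76), the ubiquitin ligase Ubr7 (0.75) and Gas2 (0.75), and all 5 had their lowest or next to lowest difference at 3 h, Pde6d at -1.22. For Abcb1a they were Lrch4 (0.85), Fam13b (0.83), the RNA polymerase III repressor Maf1 (0.83), Cpt2 (0.83), already described among the oxidation genes, and the surface protein Cd47 (0.82). Cd47 had a log2 difference of -0.89 at 3 h. By Spearman correlation 1 of the top 5 was shared with this list for Fabp5, 3 for Lpin1 and 2 for Abcb1a. By the correlation of the 8 group means 2, 0 and 0 were shared.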

How the data were processed

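The authors deposited 1 linear intensity per probe set for each of 31 single-colour arrays in 8 groups. For the scanner software, summarisation and scaling no source used here gives a description (not given in the sources used here). The mean of every array, with 2% of probe sets taken off each end, was 150.1, so that arrays had a common scale when deposited, and no further scaling was applied. Signal over background limits the precision of dim probe sets, and between 15.4% and 24.1% of probe sets per array lay at or below the floor.

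Groups came from sample titles. Of 12488 probe sets, 66 array controls were left out. Symbols came from the platform annotation, updated to RefSeq GRCm38.p6 by Entrez number; of the 12422, 10833 had 1 symbol, 396 several and 1193 none. Values below 5.8 (the 20th percentile) were set to 5.8 and log2 was taken. Probe sets with a group mean above the 40th percentile (20.2) in at least 1 group were kept. A linear model with a mean per group, with 23 residual degrees of freedom, came from lmFit and eBayes of limma 3.58.1 (R 4.3.3), with two-sided p-values adjusted by Benjamini-Hochberg over 7930 probe sets and a call at adjusted p under 0.05. The brightest probe set stood for a gene. The fit was tested on simulated data.

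The 3 genes, the gene lists and the tests were chosen with earlier results of these data known. Genes named in the text are the 3, their nearest relatives, up to 4 of each list with the lowest p among those called at each time (2 where none was called), the 5 most alike in signal to each of the 3, and Egr1 and Il4. The Gata3, Cd3d, Cd4, Cd247, Il5, Adgre1, Itgam, Lyz2, Marco, Itgax, Cd14, Csf1r and Cd68 levels are markers. Replicate numbers are shared between groups, but only 5 of 15 pairs of arrays with the same time and number had deviations that correlated over 0.1, so that the numbers were not taken to pair samples. Alternatives changed the floor, filter, scaling, samples fitted, replicate block, variance model and probe set rule, and left out each array.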

Additional observations from a re-analysis of the deposited data

Results flagged for a closer look

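For Abcb1a, PBS 3 h replicate 4, at a signal of 48, stood apart from the other arrays of its group by more than Dixon's limit, and so did NmU 12 h replicate 3, at 50.8. Over the 3 genes 21 groups of 4 arrays were examined, and chance alone flags about 1 group in 20.

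The difference of NmU minus PBS itself differed between times for 8 of the 22 called genes of the lists, by an F test of limma. That test called 4.04% of all probe sets. The 22 genes were picked by calls on this same difference, which favours a high share among them. Nothing is read from their share beside that of all probe sets. The 8 genes were Msmo1 (adjusted p = 0.00376), Elovl5 (adjusted p = 0.0161), Mvk (adjusted p = 0.0201), Acsl4 (adjusted p = 0.0209), Sqle (adjusted p = 0.0256), Idi1 (adjusted p = 0.0314), Ptdss2 (adjusted p = 0.0359) and Acaa1a (adjusted p = 0.0421).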

How the results depend on the processing

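The alternatives were run on 116 differences, those of the 3 genes, of their measured relatives and of genes named for the lists. The differences of Egr1, Il4, Cd68 and Mvk were not among the 116. None of the 116 that was called changed its sign, but 23 uncalled or untested ones crossed 0 under at least 1 alternative. Among the 23 was Abcb1a at 0.8 h (-0.00), which was 0.082 with arrays scaled to a common median. Lpin2, Abcc1 and Abca1 at 3 h reached 0.072, 0.10 and 0.27 with single arrays left out. The dim Lpin1 value at 3 h was -0.85 with the floor at the 40th percentile and -1.03 with log2(value + 16), and with single arrays left out it ranged from -2.50 to -1.70. At 3 h Fabp5 ranged from -0.41 to -0.081 and Abcb1a from -1.05 to -0.48 with single arrays left out. With arrays scaled to a common median, 3 probe sets were lower at 0.8 h (reported fit: 5), 265 were lower at 3 h beside 323 higher (reported: 454 and 352), 173 were lower at 6 h beside 114 higher (161 and 226), and 14 were lower at 12 h beside 62 higher (32 and 68); 5 listed genes were lower at 3 h, 6 higher and 2 lower at 6 h and 1 higher at 12 h. Quantile normalisation gave 411 lower beside 415 higher at 3 h, and 187 lower beside 202 higher at 6 h. With only the groups compared, 8 were lower at 0.8 h, 61 lower beside 110 higher at 3 h, 53 beside 111 at 6 h and 13 beside 43 at 12 h, and of listed genes 3 higher and 2 lower at 3 h, 6 and 0 at 6 h and 1 higher at 12 h. Without the filter, or with the mean of a gene's probe sets, 1 listed gene was higher at 12 h. With the replicate number as a block, although the numbers were not taken to pair samples, Fabp5 at 3 h was -0.081, since PBS replicate 4 then has no partner, and 2 listed genes were lower at 6 h. PBS 3 h replicate 4 and NmU 6 h replicate 4 were also left out together, a pair chosen after seeing the data. Leaving out both gave -0.081 for Fabp5 and 13 listed genes lower at 3 h. It also gave 252 probe sets lower at 6 h and 4 listed genes higher at 12 h. For Abcb1a over all arrays of a time, the limma F test then gave an adjusted p = 0.0476 (reported fit: 0.0931). That test holds the NmU arrays on which the gene was chosen, so that nothing is read from either value. With single arrays left out, listed genes lower at 3 h numbered 7 to 13. In the same fits, probe sets at 6 h numbered 144 to 286 higher and 92 to 215 lower. Listed genes at 6 h numbered 7 to 14 higher and 2 to 4 lower. At 12 h, probe sets lower numbered 15 to 40 and listed genes higher 1 to 4. The limma F test over all arrays, which holds the NmU arrays that chose the genes, also varied over these fits. Its adjusted p was 0.0488 to 0.254 for Lpin1 (reported fit: 0.0945) and 0.0393 to 0.248 for Abcb1a (reported fit: 0.0931). These ranges restate that choice and are given as a description. The cause was not tested in these cases. The number of arrays and, for dim probe sets such as Lpin1 and Ptdss2, the signal over background limit the precision.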
